A study of Mus musculus with 1989 samples.

Results

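The genes described here encode enzymes of glycolysis: *Hk1*, *Hk2*, *Gpi1*, *Aldoa*, *Tpi1*, *Gapdh*, *Pgk1*, *Pgam1*, *Pkm* and *Ldha*. They were chosen by name, but with earlier results of these data known, from the scRNA-seq table of mouse thymocytes, which held 8846 genes. Of the 10 genes, 9 had a row, and *Aldoa* was not analysed in this table. The study profiled thymocytes of C57BL/6 mice, an inbred strain, with droplets, in a single scRNA-seq library that holds 1993 cells. It also profiled chromatin by scATAC-seq, from which 182 cells sorted as double-negative (DN), 125 as double-positive (DP), 119 as CD4 and 116 as CD8 were used. By the labels the mice were male and 7 weeks old, whereas the protocol gives 6 to 8 weeks. The labels give no treatment, and the thymus was ground to a suspension before capture. The labels tie no cell to an animal. The library and each sort therefore count as 1 sample, and no test, p-value or standard error was computed.

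Glycolysis splits glucose into pyruvate in the cytosol and gives ATP without oxygen. Hexokinases trap glucose as its phosphate, the middle enzymes cleave and oxidize the sugar, pyruvate kinase makes pyruvate, and lactate dehydrogenase turns pyruvate into lactate. Lymphocytes that divide are known for high glycolysis, and in the thymus the cells that pass β-selection enlarge and divide rapidly before they come to rest as DP cells.

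Cells were clustered without the pathway's genes, and clusters were named by marker genes. This gave 78 DN-like cells, 162 immature single-positive (ISP-like) cells, 344 DP blasts (DPbla-like), 495 rearranging DP cells (DPre-like), and 336 DP cells under selection (DPsel-like). The mature cells were 152 CD4sp-like and 146 CD8sp-like cells, named for their single co-receptor. A further 31 cells were like nonconventional lymphocytes (NCLs) and 36 like antigen-presenting cells (APCs). All the markers of each of the 9 classes were detected in it. Clusters 8 and 13, with 146 and 67 cells (7.33% and 3.36% of the cells), kept no name because their best class led the next by less than 0.5 in score, a limit set after the scores were seen. The deposited values are on a log2 scale, so each was replaced by its place in the order of different values found in that cell. This place, a step, stood in for a count and understates high levels. A cell held at most 22539 steps. Median depth was 10026.5 steps for ISP-like cells, 5261 for DPbla-like cells and 3633 for DN-like cells, against 1938 to 2407.5 in the other 6 classes. Each cell was therefore thinned at random to 1300 steps, and levels are given as thinned steps per 100 cells. Such a level is relative to all RNA counted in the cell, so a larger cell with more of every RNA has the same level. Intervals are exact 95% counting intervals and cover counting error only, not the spread between animals.

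Over all cells, a value above 0 was found for *Gapdh* in 90.8% of cells, for *Ldha* in 74.3%, for *Pkm* in 65.9%, for *Gpi1* in 55.1% and for *Pgk1* in 53.6%. The shares were 32.7% for *Pgam1*, 29.8% for *Tpi1*, 12.1% for *Hk1* and 2.51% for *Hk2*. These shares depend on depth and on the gene, and they are not compared between genes. Among the 9 named classes, the level of 5 of the 9 genes, *Tpi1*, *Gapdh*, *Pgk1*, *Pgam1* and *Ldha*, was highest in ISP-like cells, while *Pkm* was highest in CD4sp-like cells. The unnamed cluster 13 was higher still for *Pkm*.

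**Figure D1:**
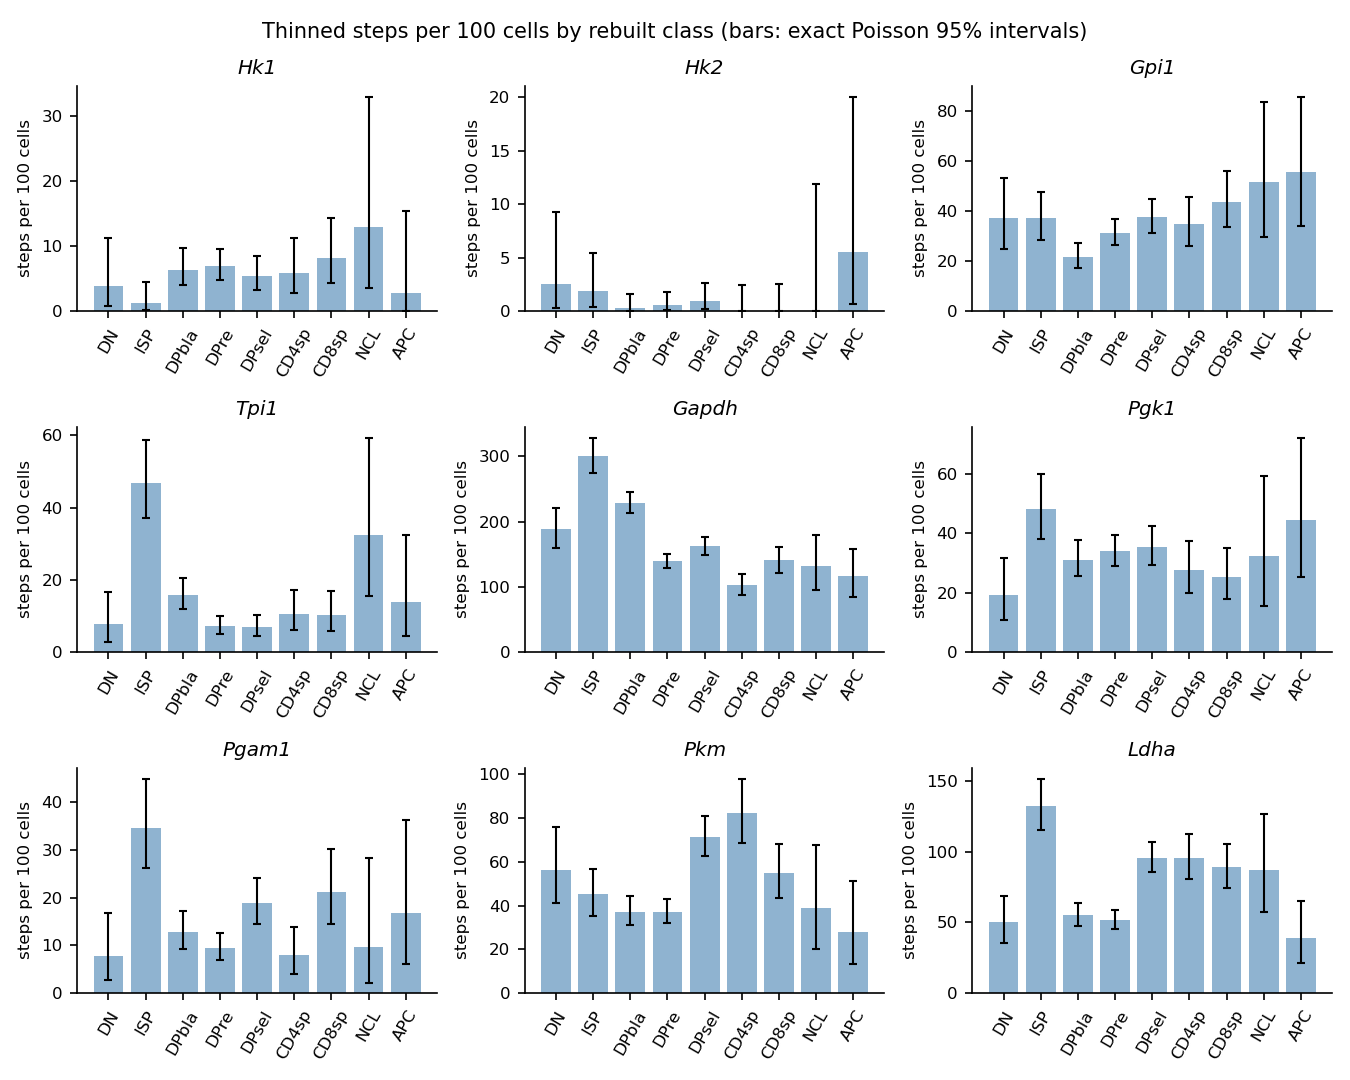
Thinned steps per 100 cells (vertical axis, from 0, with its own scale in each panel) of each gene in the 9 named classes (horizontal axis), with exact Poisson 95% intervals. Bars of *Tpi1*, *Gapdh*, *Pgk1*, *Pgam1* and *Ldha* are tallest in ISP-like cells, *Ldha* and *Pkm* are higher in the DPsel-like and both mature classes than in DPre-like cells, and *Hk1* and *Hk2* have few steps in every class.

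ISP-like cells, the proliferating stage that follows DN cells, had more glycolysis enzyme steps than DN-like cells. The 9 genes summed to 6.48 ± 2.86 thinned steps per cell in ISP-like cells (mean ± SD over 162 cells) and to 3.73 ± 2.32 in DN-like cells (78 cells), a ratio of 1.74 (1.52 to 1.99). Without *Gapdh* the sums were 3.48 and 1.85. No ISP-like cell and 5 DN-like cells had a sum of 0. The groups overlapped, with 75.3% of ISP-like cells above the median DN-like cell. A gene was compared between classes where it was found in at least 10% of the cells of either class, and it was called where the ratio of mean thinned steps was past 1.5 times. Of the 7 genes compared, 5 were called higher and none lower, where 26.6% of all 3271 genes compared were called higher and 32.5% lower. The median ratio was 2.5 over the 7 genes and 0.929 over all genes compared.

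*Tpi1*, which interconverts the triose phosphates, had 46.9 (37.0 to 58.7) steps per 100 cells in ISP-like and 7.69 (2.82 to 16.7) in DN-like cells, a ratio of 6.10 (2.68 to 17.1). *Gapdh*, which oxidizes glyceraldehyde phosphate, had 301 (275 to 329) against 188 (159 to 222), a ratio of 1.60 (1.32 to 1.93). In *Pgk1*, the first enzyme of the pathway to make ATP, the ratio was 2.5 (1.43 to 4.69), from 48.1 (38.1 to 60.1) and 19.2 (10.8 to 31.7) steps per 100 cells. The intervals of these genes did not overlap between the classes. *Pgam1*, which moves the phosphate of phosphoglycerate, had 34.6 (26.1 to 44.9) steps per 100 ISP-like and 7.69 (2.82 to 16.7) per 100 DN-like cells, a ratio of 4.49 (1.94 to 12.8). *Ldha*, the lactate dehydrogenase A subunit, had 133 (116 to 152) and 50 (35.6 to 68.4), a ratio of 2.65 (1.88 to 3.84). Before thinning, *Ldha* was above 0 in all 162 ISP-like cells, its log2 values averaging 2.17 ± 0.50 (± SD) against 0.69 ± 0.72 in DN-like cells. Not every enzyme shared this difference. *Gpi1*, which isomerizes glucose phosphate, had a ratio of 0.996 (0.629 to 1.61), and *Pkm*, pyruvate kinase, one of 0.799 (0.542 to 1.19).

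Depth differed between the classes, so the pair was also compared in a narrower range of depth. In cells of 3500 to 9000 steps, a range chosen after the depths were seen, the summed ratio was 1.62 (1.34 to 1.96) with 54 ISP-like and 39 DN-like cells. *Ldha* had a ratio of 2.57 (1.5 to 4.60) there and *Gapdh* one of 1.70 (1.29 to 2.26). *Pgk1* had a ratio of 1.56 (0.762 to 3.40), whose interval includes 1. *Pkm* was at 0.593 (0.326 to 1.07) and passed the limit downward. Depth was not equal within this range, with a median of 7988.5 steps in ISP-like and 4282 in DN-like cells, and a lower median in DPbla-like than in ISP-like cells.

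DP blasts had a lower sum of glycolysis enzyme steps than ISP-like cells, and *Tpi1*, *Pgk1*, *Pgam1* and *Ldha*, higher in ISP-like than DN-like cells, were called lower here. The sum was 4.09 ± 2.37 steps per cell over 344 cells, a ratio of 0.631 (0.582 to 0.684), and 16.0% of DPbla-like cells were above the median ISP-like cell. Of 7 genes compared, 5 were called lower and none higher, where 21.5% of all genes were called lower and 21.0% higher. *Tpi1* had 15.7 (11.8 to 20.5) steps per 100 DPbla-like cells, a ratio of 0.335 (0.232 to 0.481). *Pgam1* had 12.8 (9.29 to 17.2), a ratio of 0.370 (0.244 to 0.559), and *Ldha* had 54.9 (47.4 to 63.4), a ratio of 0.414 (0.339 to 0.506). *Gpi1*, not called in ISP-like over DN-like cells, and *Pgk1* were also called lower, with ratios of 0.589 (0.414 to 0.841) and 0.646 (0.478 to 0.876). *Gapdh* was not called, at 0.761 (0.679 to 0.854), and *Pkm* was at 0.826 (0.615 to 1.12). In cells of 3500 to 9000 steps the summed ratio was 0.587 (0.521 to 0.663), and that of *Ldha* was 0.397 (0.293 to 0.542), with 302 and 54 cells. *Mki67*, a proliferation marker used in naming both classes, was above 0 before thinning in 93.0% of DPbla-like and 74.1% of ISP-like cells, and the part of the cell cycle in the difference was not tested.

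Cluster 8, led by *Pclaf*, *Hmgb2* and *Dut* and with *Mki67* above 0 in 67.1% of cells, scored 0.521 for the ISP markers and 0.199 for the DPbla markers. Its sum of 5.25 ± 2.38 steps per cell lay between those of both classes, with *Gapdh* at 266 (240.0 to 294), *Ldha* at 84.2 (70.0 to 101) and *Tpi1* at 24.7 (17.3 to 34.1) steps per 100 cells. Among the 3 DPbla-like clusters the mean sum was 4.56 in cluster 2, led by *Hist1h2ap*, 3.76 in cluster 10 and 3.36 in cluster 12, led by *Hmgb2* and *Ube2c*. *Gapdh* had 251.4 (228.6 to 276), 227 (198.1 to 259.8) and 175 (146 to 208) steps per 100 cells in these clusters, so the interval of cluster 2 did not overlap that of cluster 12.

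**Figure D2:**
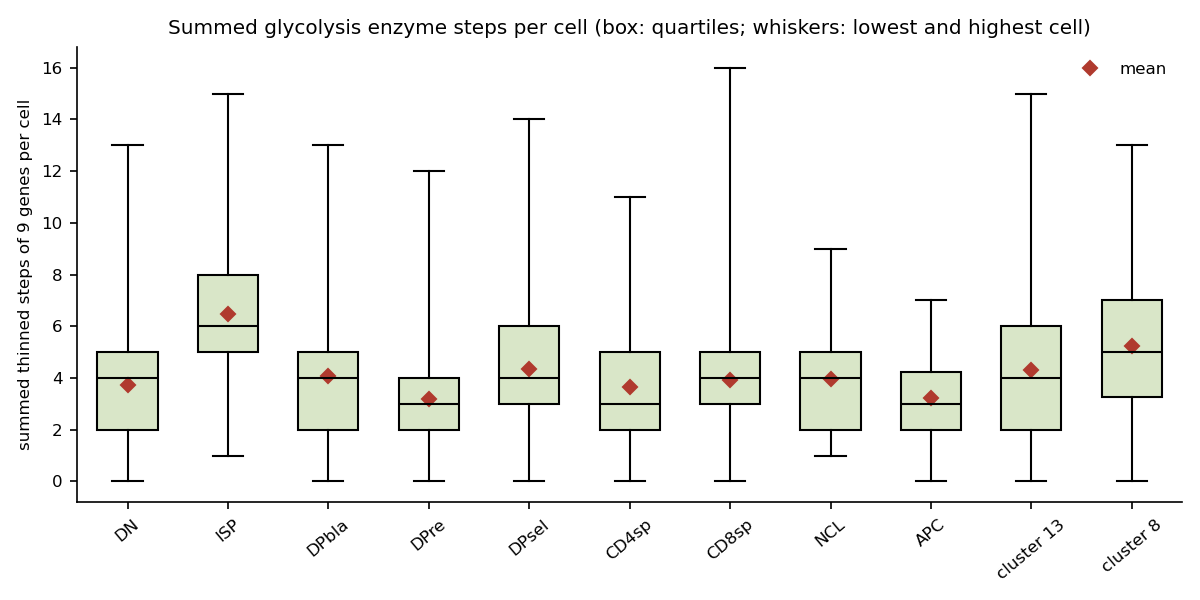
Summed thinned steps of the 9 genes per cell (vertical axis) by class and for the clusters 13 and 8 that kept no name (horizontal axis); boxes are quartiles, whiskers reach the lowest and highest cell and diamonds are means. The ISP-like mean of 6.48 and that of cluster 8, 5.25, lie above the other means, which run from 3.18 to 4.34, and the ranges of cells overlap throughout.

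DPre-like cells, named for the recombination genes *Rag1* and *Rag2* among their markers, had a sum of 3.18 ± 1.87 steps per cell over 495 cells. The ratio of this sum to that of DP blasts was 0.776 (0.722 to 0.835). Without *Gapdh* the sums were close, at 1.78 in DPre-like and 1.80 in DPbla-like cells. Of 7 genes compared, *Tpi1* and *Gapdh* were called lower and none higher, beside 18.9% of all genes lower and 25.5% higher. *Gapdh* had 139 (129 to 150.2) steps per 100 DPre-like and 228.8 (213 to 245.3) per 100 DPbla-like cells, a ratio of 0.609 (0.549 to 0.676). *Tpi1* had 7.07 (4.93 to 9.83), a ratio of 0.450 (0.286 to 0.702). The *Gapdh* and summed values did not hold in deeper cells. In cells of 3500 to 9000 steps, with only 30 DPre-like cells, the *Gapdh* ratio was 1.02 (0.786 to 1.32) and the summed ratio 1.16 (0.960 to 1.38). *Pgk1*, *Pgam1* and *Ldha* passed the limit upward in these cells, with *Ldha* at 1.70 (1.06 to 2.63) and *Pgam1* at 2.59 (1.09 to 5.49). *Tpi1* was at 0.219 (0.00542 to 1.28), with 1 step in the DPre-like cells. Of these 30 cells, 27 were in cluster 9 and 18 had *Mki67* above 0, so that depth and cluster cannot be told apart here. *Ldha*, *Pkm* and *Pgk1* had ratios of 0.941, 0.999 and 1.09 over all cells, with intervals that include 1. *Pgam1* was at 0.742 (0.482 to 1.15), and *Gpi1* was higher without passing the limit, at 1.44 (1.08 to 1.92). DPre-like cells were themselves unequal. Cluster 9, with *Mki67* above 0 in 43.7% of cells, had 201.7 (177 to 228.9) *Gapdh* steps per 100 cells, against 140.2 (124 to 158) in cluster 0 and 96.6 (82.7 to 112) in cluster 1, which was led by *Cd8b1*, *Gm4258* and *Rag1*.

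**Figure D3:**
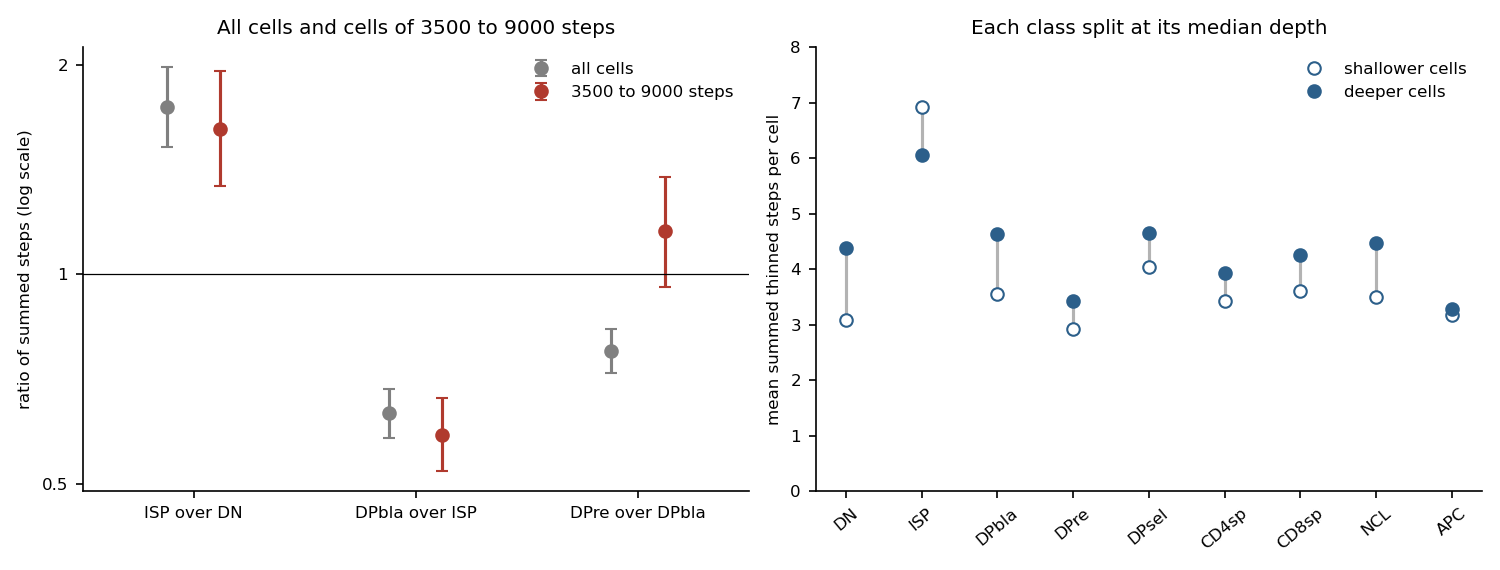
Left, ratio of the summed thinned steps of the 9 genes for 3 pairs of classes (log axis) over all cells and over cells of 3500 to 9000 steps, with exact 95% counting intervals. Right, mean summed thinned steps per cell in the shallower and deeper cells of each class. The ratios that involve ISP-like cells stay on their side of 1 in cells of 3500 to 9000 steps and that of DPre-like over DPbla-like cells does not, while deeper cells have the higher mean in every class but ISP-like.

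Thinning did not remove all of the relation to depth. In 10 of 11 classes or unnamed clusters the cells deeper than the median had the higher mean sum after thinning, for example 4.63 against 3.55 in DPbla-like cells. ISP-like cells, the deepest class, went the other way, with 6.05 in the deeper and 6.91 in the shallower cells. The part of depth in each ratio was not tested beyond the cells of a narrower range.

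A second set of differences lay between DPsel-like and DPre-like cells, which had median depths of 1979 and 1999 steps. DPsel-like cells had 4.34 ± 2.28 summed steps per cell over 336 cells, a ratio of 1.37 (1.27 to 1.47) to DPre-like cells. Of 6 genes compared, *Pgam1*, *Pkm* and *Ldha* were called higher and none lower, beside 14.3% of all genes higher and 15.5% lower. *Ldha* had 95.8 (85.7 to 107) steps per 100 DPsel-like and 51.7 (45.6 to 58.5) per 100 DPre-like cells, a ratio of 1.85 (1.57 to 2.19). *Pkm* had 71.4 (62.7 to 81.1) against 37.2 (32.0 to 42.9), a ratio of 1.92 (1.58 to 2.34). The intervals of both genes lay apart in the 2 classes. *Pgam1* had 18.8 (14.4 to 24.0) against 9.49 (6.98 to 12.6), a ratio of 1.97 (1.33 to 2.95). *Gapdh*, *Gpi1* and *Pgk1* had ratios of 1.16, 1.2 and 1.04 and were not called. In cells of 1800 to 3500 steps the ratios were 1.96 for *Ldha*, 2.30 for *Pkm* and 2.09 for *Pgam1*. As differences of mean log2 values, which do not correct for depth, 0.54 for *Ldha* and 0.38 for *Pkm* stayed under the limit of 0.58, so that 0 of 3 genes were called. Within the class, *Pkm* had 94.7 (80.6 to 111) steps per 100 cells in cluster 3 and 47.9 (38.0 to 59.6) in cluster 4. *Pgam1* had 23.7 (16.9 to 32.2) and 13.8 (8.73 to 20.7), and *Ldha* 102 (87.1 to 118) and 89.8 (76.0 to 105), in the same order. Cluster 3 was led by *Tmsb10*, *Itm2a* and *Cd52*, and cluster 4 by *Cd28*. Cluster 3 scored 2.23 for the DPsel and 1.63 for the CD4sp markers, a lead of 0.595. At resolution 1 a cluster led by the same genes had a lead of 0.0252 and kept no name. The unnamed cluster 13, led by *Tmsb10*, *Ifi27l2a* and *Cd52*, had 98.5 (76.2 to 125) *Pkm* and 82.1 (61.8 to 107) *Ldha* steps per 100 cells.

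In DPbla-like over ISP-like and DPsel-like over DPre-like cells the *Ldha* difference was the reverse of that of *Ldhb*. In DPre-like over DPbla-like and in CD4sp-like over DPsel-like cells *Ldha* was not called, at 0.941 and 0.995. *Ldhb* encodes the other main lactate dehydrogenase subunit and is one of the further pathway genes. *Ldhb* had 27.8 (20.3 to 37.2) steps per 100 ISP-like, 66.0 (57.7 to 75.2) per 100 DPbla-like and 119 (110.0 to 129) per 100 DPre-like cells. It was then lower, with 79.5 (70.2 to 89.6) in DPsel-like and 32.2 (23.8 to 42.6) in CD4sp-like cells. *Ldhb* was called higher in DPbla-like than ISP-like and in DPre-like than DPbla-like cells, with ratios of 2.38 and 1.81, and lower at the next 2 pairs, with 0.666 and 0.406. Of the steps of both genes, *Ldha* made up 66.1% (52.6 to 77.9) in DN-like and 82.7% (77.5 to 87.1) in ISP-like cells. Its share was 45.4% (40.6 to 50.4) in DPbla-like and 30.2% (27.1 to 33.4) in DPre-like cells, the lowest of the 9 classes. It was 54.7% (50.5 to 58.7) in DPsel-like, 74.7% (68.0 to 80.7) in CD4sp-like and 78.3% (71.3 to 84.3) in CD8sp-like cells. The share can be compared between classes, not read as the makeup of the enzyme.

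CD4sp-like and CD8sp-like cells, the mature stages, kept the *Ldha* level of DPsel-like cells within the counting intervals, with 95.4 (80.5 to 112) and 89.0 (74.4 to 106) steps per 100 cells. The summed ratio of CD4sp-like to DPsel-like cells was 0.846 (0.766 to 0.933). Without *Gapdh* the sums were close, at 2.64 in CD4sp-like and 2.72 in DPsel-like cells. Of 6 genes compared, *Gapdh* and *Pgam1* were called lower and none higher, beside 15.6% of all genes lower and 13.4% higher. *Gapdh* had 103 (87.2 to 120.1) steps per 100 CD4sp-like cells, its lowest level among the named classes, with a ratio of 0.634 (0.527 to 0.759). *Pgam1* had 7.89 (4.08 to 13.8), a ratio of 0.421 (0.207 to 0.788). CD8sp-like cells had a summed ratio of 1.07 (0.951 to 1.21) to CD4sp-like cells. *Pgam1* was called higher, with 21.2 (14.4 to 30.1) steps per 100 cells and a ratio of 2.69 (1.34 to 5.75), beside 12.4% of all genes. *Pkm* was called lower, with 54.8 (43.4 to 68.2) against 82.2 (68.5 to 98.0) and a ratio of 0.666 (0.497 to 0.889), beside 11.7% of all genes. This last call was at the limit and was lost under 6 of the alternatives.

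**Figure D4:**
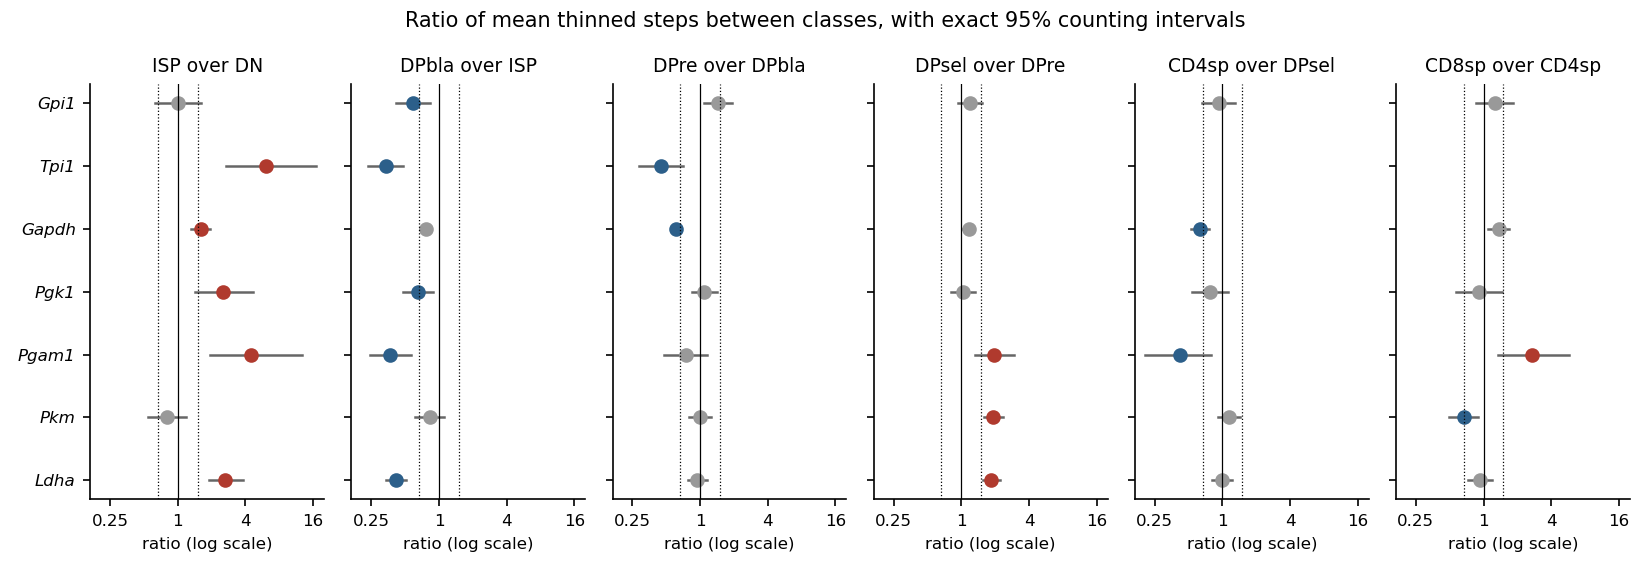
Ratio of mean thinned steps (log axis) of the 7 genes compared in any pair, for 6 pairs of classes, with exact 95% counting intervals; dotted lines mark 1.5 times in either direction, red points are called higher, blue points lower and gray points neither. Red points gather in ISP-like over DN-like and in DPsel-like over DPre-like cells, blue points in DPbla-like over ISP-like cells, and *Tpi1* has no point in the last 3 pairs, where it was too sparse to be compared.

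The hexokinases were too sparse for any pair. *Hk1* had from 1.23 (0.150 to 4.46) steps per 100 ISP-like cells to 12.9 (3.52 to 33.0) per 100 NCL-like cells. The intervals of all neighbors in its order overlapped, but that of ISP-like cells lay below that of DPre-like cells, 6.87 (4.76 to 9.60). In DPbla-like over ISP-like cells, a pair under the 10% limit, the *Hk1* ratio was 5.18 (1.27 to 45.4), on 22 and 2 steps. *Hk2*, the hexokinase known to be induced in activated lymphocytes, was above 0 in 50 cells. Before thinning its share was 14.8% of ISP-like, 11.1% of APC-like and 5.13% of DN-like cells. After thinning it was 5.56% of APC-like, 2.56% of DN-like and 1.85% of ISP-like cells, on 2, 2 and 3 cells with a step, and 0 of 152 CD4sp-like cells, where 3 cells, or 1.97%, is the limit taken for a count of 0 and the exact 95% interval reaches 2.40%. Both limit cells with a step, not cells that express the gene. Median depth was 10026.5 steps in ISP-like and 2407.5 in APC-like cells, while DPbla-like cells, with 5261, had *Hk2* above 0 in 0.872%. The part of depth in these shares was not tested. *Gpi1* ran from 21.8 (17.1 to 27.3) steps per 100 DPbla-like to 55.6 (33.9 to 85.8) per 100 APC-like cells. In the order of levels, ISP-like cells stood apart from the next class, by intervals that did not overlap, for *Gapdh* and *Ldha*. For the other 7 genes, and for these 2 below the first place, neighboring classes overlapped.

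NCL-like and APC-like cells, with 31 and 36 cells, had wide intervals. *Tpi1* had 32.3 (15.5 to 59.3) steps per 100 NCL-like cells, and *Pkm* had 27.8 (13.3 to 51.1) per 100 APC-like cells, its lowest level among the named classes. B cell markers were found in 47.2% of APC-like, 14.1% of DN-like and 0.658% to 7.88% of the cells of the other named classes, and epithelial markers in 20.5% of DN-like, 11.1% of APC-like and 2.63% to 8.22% of the other named classes. Macrophage markers were found in 7.56% to 25.0% and erythroid markers in 1.45% to 6.45% of the cells of each named class. Their part in the differences was not tested. By the methods the reference held no pseudogenes, so reads from processed copies of *Gapdh* and other members could count for the gene, which was not tested.

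Other genes of the pathway were taken from lists of known members. Of 19 further glycolysis enzymes 8 had a row. *Eno1*, enolase, was called higher in ISP-like than DN-like cells, lower in DPbla-like than ISP-like cells and higher in DPsel-like than DPre-like cells, with ratios of 2.93 (1.62 to 5.74), 0.614 (0.454 to 0.834) and 2.79 (2.28 to 3.42). It had 30.1 (25.5 to 35.3) steps per 100 DPre-like, 83.9 (74.4 to 94.3) per 100 DPsel-like and 103 (87.8 to 121) per 100 CD4sp-like cells. Among genes of transport and pyruvate entry, 3 of 7 compared were called higher and 2 lower in ISP-like than DN-like cells, where the shares of all genes were 26.6% and 32.5%. *Mpc1*, a subunit of the mitochondrial pyruvate carrier, had a ratio of 2.52 (1.38 to 4.97), and *Pdk1*, which inhibits pyruvate dehydrogenase, one of 0.394 (0.144 to 1.05). *Pdk1* was called higher in DPre-like than DPbla-like cells, at 3.31 (2.16 to 5.27). Of the citric acid cycle, 9 of 13 genes compared were called higher in ISP-like than DN-like cells and 1 lower, beside the same shares of all genes, with a median ratio of 1.62 against 0.929 over all genes. *Sdhb*, a subunit of succinate dehydrogenase, had a ratio of 2.73 (1.71 to 4.57). In DPsel-like over DPre-like cells 1 of 12 cycle genes was called higher, beside 14.3% of all genes, with a median ratio of 1.01. Of 3 pentose phosphate genes compared in ISP-like over DN-like cells none was called, and *Tkt*, transketolase, was called lower in DPbla-like than ISP-like cells, at 0.471 (0.337 to 0.659).

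Across the 16 clusters, *Eif5a*, a translation factor, had the mean thinned steps most like the summed glycolysis genes, with a Pearson correlation of 0.92. *Set*, *Ybx1*, *AI506816* and *Snrpf* followed, and *Dock2*, *Cdc42se2*, *Chd6*, *Pnrc2* and *Arid4a* were lowest, with -0.79 for *Dock2*. These are descriptions over clusters of 1 library that share depth. The members differed among themselves. The correlation with the sum of the other members was 0.74 for *Pgam1*, 0.64 for *Tpi1* and 0.60 for *Ldha*, but 0.17 for *Gapdh*, -0.04 for *Pkm* and -0.44 for *Hk1*.

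In the scATAC-seq data all 10 genes, *Aldoa* included, had a peak within 145 bp of a transcription start, measured to the peak's center. Over all 542 sorted cells the count in this peak ran from 40 at *Ldha* to 169 at *Hk1*. Peaks are 4000 bp wide, and values are counts per 10000 counts in peaks. DP sorted over DN sorted cells, the 10 ratios had a median of 1.17, beside 1.05 (quartiles 0.802 and 1.34) over 4839 promoter peaks with at least 50 counts, and every interval included 1. Over all these peaks 8.00% had an interval above 1 and 4.75% below it. CD4 and CD8 sorted cells together over DP sorted cells, the median was 0.964 beside 0.962 over 4837 peaks. Of 10 genes, 2 had intervals below 1, *Pgk1* and *Hk2*, and none had one above it, where 7.13% of all these peaks had an interval below 1 and 4.69% above it. The count rests on 2 genes.

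*Pgk1* had 0.406 (0.296 to 0.543) counts per 10000 in DN, 0.627 (0.423 to 0.895) in DP, 0.215 (0.111 to 0.376) in CD4 and 0.263 (0.140 to 0.449) in CD8 sorted cells. The ratio of the CD4 and CD8 sorts to the DP sort was 0.379 (0.213 to 0.666). It was 0.292 (0.149 to 0.556) in cells whose label number, of which the meaning is not given in the sources used here, is below 31000 and 1.04 (0.251 to 6.11) in the others, where it rests on 11 counts. *Hk2* had 0.352 (0.25 to 0.481), 0.460 (0.288 to 0.696), 0.143 (0.0619 to 0.282) and 0.364 (0.216 to 0.575) in the same order, a ratio of 0.537 (0.293 to 0.994), and 0.610 (0.323 to 1.17) within label numbers below 31000, so that its interval then included 1. The others held 4 *Hk2* counts. *Pkm* had 0.505 (0.382 to 0.656) in DN, 0.585 (0.389 to 0.846) in DP, 0.824 (0.603 to 1.10) in CD4 and 0.667 (0.459 to 0.937) in CD8 sorted cells, with a ratio of 1.28 (0.823 to 2.05). *Gapdh* ranged from 0.487 (0.366 to 0.635) in DN to 0.585 (0.389 to 0.846) in DP sorted cells, and its 4 intervals overlapped. *Ldha*, with 5 to 14 counts per sort, has a pair of RefSeq starts. With all peaks within 5 kb that do not overlap one another, it had 0.334 in DN, 0.439 in DP, 0.609 in CD4 and 0.505 in CD8 sorted cells.

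**Figure D5:**
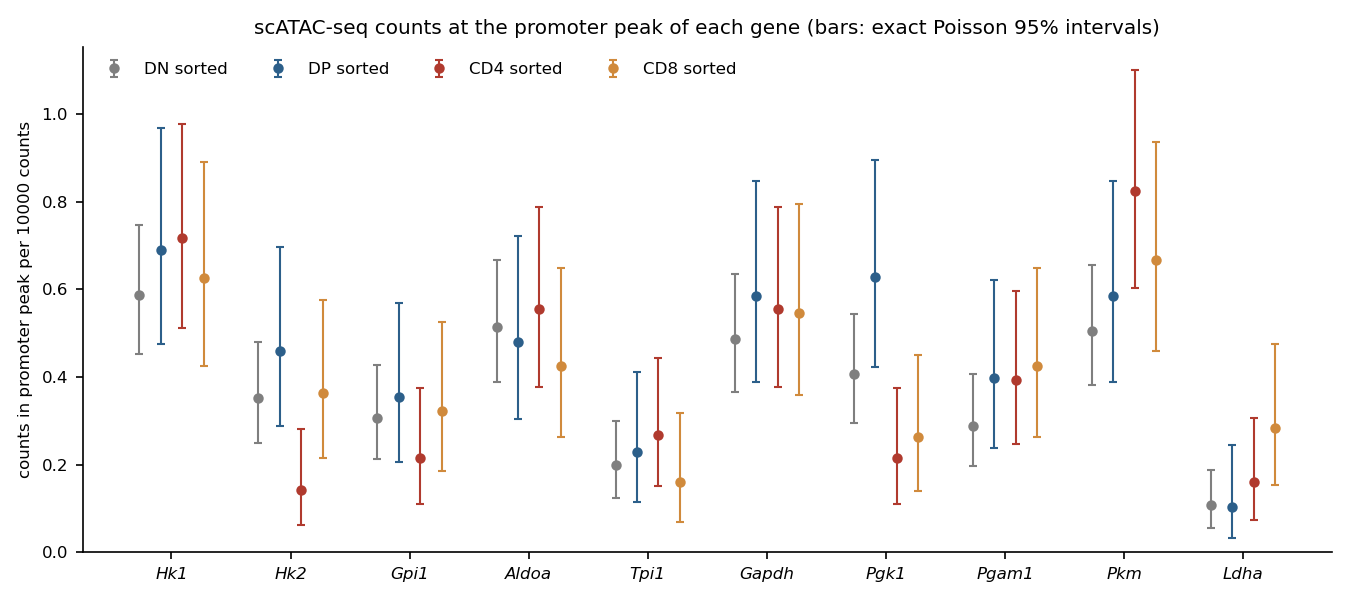
Counts in the promoter peak of each gene per 10000 counts in peaks (vertical axis, from 0) in cells sorted as DN, DP, CD4 and CD8, with exact Poisson 95% intervals. The CD4 intervals of *Pgk1* and *Hk2* lie below their DP intervals, their CD8 intervals overlap the DP intervals, and the 4 intervals of each other gene overlap.

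The promoters of *Pgk1* and *Hk2*, the genes with a pooled interval below 1, are shown with that of *Pkm*, an example with no ACGTG. Nothing about the ratios is read from the matches. Of the genes that hold ACGTG in a window of 300 bases around the start, the ratios of CD4 and CD8 to DP sorted cells were 0.379 for *Pgk1*, 0.537 for *Hk2*, 0.941 for *Gapdh*, 0.977 for *Hk1*, 1.03 for *Aldoa* and 1.03 for *Pgam1*. Of those that lack it they were 0.748 for *Gpi1*, 0.950 for *Tpi1*, 1.28 for *Pkm* and 2.09 for *Ldha*, the last with an interval of 0.777 to 7.04. Each is the 250 bases before a RefSeq transcription start, 5′ to 3′ on the gene's strand, on GRCm38.p6, at chrX:106186850-106187099 (plus strand), chr6:82774455-82774704 (minus strand) and chr9:59656326-59656575 (plus strand). On the same build the annotation places *Pgk1* at chrX:106187100-106203699, *Hk2* at chr6:82725025-82774454 and *Pkm* at chr9:59656368-59679375, all protein-coding. *Pkm* has a pair of RefSeq starts 651 bp apart, and most of the stretch shown lies after the first base of the annotated gene. Capitals mark ACGTG on either strand (CACGT when reversed), the core letters of the site that hypoxia-inducible factor binds.
Pgk1: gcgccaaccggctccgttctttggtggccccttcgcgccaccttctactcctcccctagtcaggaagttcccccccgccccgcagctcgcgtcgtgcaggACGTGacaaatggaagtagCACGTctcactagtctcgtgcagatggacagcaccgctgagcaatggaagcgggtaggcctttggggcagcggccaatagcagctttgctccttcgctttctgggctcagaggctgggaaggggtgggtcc
Hk2: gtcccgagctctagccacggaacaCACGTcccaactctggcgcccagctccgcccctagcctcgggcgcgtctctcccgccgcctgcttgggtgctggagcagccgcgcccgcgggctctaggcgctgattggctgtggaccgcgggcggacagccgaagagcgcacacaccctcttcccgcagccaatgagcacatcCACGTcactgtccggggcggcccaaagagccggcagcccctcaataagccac
Pkm: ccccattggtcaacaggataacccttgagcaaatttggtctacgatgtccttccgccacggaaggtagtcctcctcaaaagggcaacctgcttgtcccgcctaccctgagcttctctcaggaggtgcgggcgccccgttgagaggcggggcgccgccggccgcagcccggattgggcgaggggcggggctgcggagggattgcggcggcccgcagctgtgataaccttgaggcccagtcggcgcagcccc
*Pgk1* and *Hk2* each held 2 matches in this stretch and *Pkm* none. In the window of 300 bases that reaches 50 bases past the start, ACGTG was in 6 of the 10 promoters, *Hk1*, *Hk2*, *Aldoa*, *Gapdh*, *Pgk1* and *Pgam1*, and in 19.6% of all 32851 promoters. CACGTG, the E-box that Myc binds, which contains ACGTG, was in none of the 10 and in 7.15% of all. GGGCGG, the letters of a GC box, was in 7 of the 10 and in 35.7% of all, and CCAAT was in 4 of the 10 and in 37.4% of all, on either strand. A match is a description of the letters and not of binding.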

How the data were processed

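The authors aligned the scRNA-seq reads with Cell Ranger (version 1.3.1 per the labels), filtered by detected genes and mitochondrial share, and deposited log2 values after quantile normalization. The stated filter names cells with over 4500 genes, and 7 deposited cells, all ISP-like, exceed that number. They were kept. Removing them would leave 1986 of 1993 cells, the number the study states. Without them the summed ratio was 1.74 for ISP-like over DN-like and 0.628 for DPbla-like over ISP-like cells. Steps are ranks within a cell and understate high genes. The authors mapped the scATAC-seq reads, removed duplicates, called peaks on merged cells and deposited, for each cell, the raw counts in every peak. The 1446 columns of total or unassigned cells were not used. Sorted cells had median totals of 2571 to 3935.5 counts. The build was taken as GRCm38, since 23.5% of peak centers lay within 2000 bp of a RefSeq start and 7.84% after a shift of 100000 bp.

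Seurat 5.3.0 in R 4.3.3 clustered the cells with variable genes of mean 0.025 to 3 and dispersion of at least 0.5, 20 principal components, 30 neighbors and resolution 2. This used 1300 genes and gave 16 clusters. No member was a variable gene, and 6 further pathway genes were left out. Marker z scores were averaged, and the best class named the cluster. ISP and DPbla were open only to clusters in which 50% of cells or more had *Mki67*, and these clusters could take no other name. Ratios have exact conditional binomial intervals. The ratio and its call were tested on simulated data. The members, marker lists and pathway lists were chosen with earlier results of these data known. The rule named all 10 members, list genes found in at least 10% of the cells of a class, and the 5 genes most and least like the sum. Doublets were not called. The alternatives tried were scaling without thinning, another seed, depth ranges, other clustering settings, leaving out deep cells, log2 differences and a lower filter.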

Additional observations from a re-analysis of the deposited data

How the results depend on the processing

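Of 46 alternative values of the summed ratios, 43 lay within the counting interval of the value given. The DPbla-like over ISP-like ratio was 0.689 at resolution 1 and 0.694 when clusters 8 and 13 took their best names, ISP and CD4sp. In cells of 3500 to 9000 steps the DPre-like over DPbla-like summed ratio was 1.16 and that of *Gapdh* 1.02, both turned from below 1 (27 of the 30 DPre-like cells are of cluster 9), with 3 genes called higher and 1 lower. There 1 gene was called lower in ISP-like than DN-like cells. Both of these alternatives were chosen after seeing the data. With genes found in 1% of cells, 1 gene more was called lower in ISP-like over DN-like cells. With that filter 1 gene, *Hk1*, was called higher in DPbla-like over ISP-like and 1 higher in CD4sp-like over DPsel-like cells. In DPbla-like over ISP-like cells *Hk2* also passed the limit downward, at 0.157 (0.00299 to 1.96), on 1 and 3 steps. With differences of mean log2 values, 3 genes were called lower in DPbla-like over ISP-like and 1 in DPre-like over DPbla-like cells, and 0 were called higher in DPsel-like over DPre-like, 0 lower in CD4sp-like over DPsel-like and 0 either way in CD8sp-like over CD4sp-like cells. For CD4sp-like over DPsel-like cells, a second seed and the best names each gave 1 lower call. For CD8sp-like over CD4sp-like cells, the range of 1800 to 3500 steps gave 2 higher calls, and 0 were lower under that range, scaling without thinning, the second seed, all variable genes and without the top 5% of cells by genes. The cause of these changes was not tested. Of the alternative ratios of single genes 387 stayed within their counting intervals, 17 moved past them and 1 called ratio, that of *Gapdh*, crossed 1 (DPre-like over DPbla-like, 3500 to 9000 steps). In the same cells *Ldha* and *Pgam1*, not called over all cells, also crossed 1, from 0.941 to 1.70 and from 0.742 to 2.59. Of 160 promoter values 131 stayed within their intervals. The range of 1800 to 3500 steps held 7 ISP-like and 16 DPbla-like cells and the range of 3500 to 9000 steps 13 DPsel-like and 7 CD4sp-like cells, too few (under 20) for a value of their pairs. No paired analysis was possible because each group is 1 sample.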

Other observations

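Regulators of the pathway differed between the classes in their own ways. *Myc*, a transcription factor known to drive glycolytic genes, had 24.4 (14.7 to 38.0) thinned steps per 100 DN-like, 33.3 (25.0 to 43.5) per 100 ISP-like and 2.33 (1.00 to 4.58) per 100 DPbla-like cells. Its ratio of DPbla-like to ISP-like cells was 0.0698 (0.0287 to 0.148), while that of ISP-like to DN-like cells was 1.37 (0.798 to 2.44) and was not called. In CD8sp-like over CD4sp-like cells *Myc* was called higher, at 2.53 (0.996 to 7.21), on 17 and 7 steps. *Mxd4*, a Max partner that opposes Myc, was called lower in ISP-like than DN-like cells, at 0.443 (0.240 to 0.813). It was called higher in DPre-like than DPbla-like cells, at 4.26 (3.30 to 5.57), and lower in DPsel-like than DPre-like cells, at 0.443 (0.361 to 0.541). *Hif1a*, the oxygen-regulated subunit of hypoxia-inducible factor, was called higher in ISP-like than DN-like cells, at 1.85 (0.731 to 5.54), on 23 and 6 steps. It was called lower in CD4sp-like than DPsel-like cells, at 0.586 (0.292 to 1.10), and higher in CD8sp-like than CD4sp-like cells, at 2.80 (1.45 to 5.77). It was not called in the other 3 pairs, at 0.880 (0.519 to 1.53) in DPbla-like over ISP-like, 0.873 (0.574 to 1.33) in DPre-like over DPbla-like and 1.34 (0.889 to 2.01) in DPsel-like over DPre-like cells. *Myc* was among the markers that named ISP-like clusters, so its level there is a description.

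Of 7 other hypoxia genes 4 had a row, and 2 could be compared in DPsel-like over DPre-like cells. *Ddit4*, an inhibitor of mTOR signaling, was called lower, at 0.602 (0.433 to 0.827), and *Higd1a*, a mitochondrial protein, higher, at 1.95 (1.44 to 2.63). *Ddit4* had been called higher in DPre-like than DPbla-like cells, at 3.81 (2.47 to 6.09), and *Higd1a* lower, at 0.516 (0.383 to 0.695). Among the cell stress genes *Hsp90aa1*, a chaperone, was called higher in ISP-like than DN-like cells, at 3.37 (2.44 to 4.75), and lower in DPbla-like than ISP-like and in DPre-like than DPbla-like cells, at 0.555 (0.475 to 0.650) and 0.397 (0.333 to 0.474). Over all cells the glycolysis sum differed in the same direction at these 3 pairs. For DPre-like over DPbla-like cells this did not hold in cells of 3500 to 9000 steps, where the summed ratio was 1.16 (0.960 to 1.38). Without *Gapdh* the sums of that pair were close over all cells, at 1.78 in DPre-like and 1.80 in DPbla-like cells. *Junb*, an immediate early gene, was called higher in DPsel-like than DPre-like cells, at 3.8 (2.59 to 5.68). Their part in the differences of the glycolysis genes was not tested.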
